A study of Mus musculus with 60 samples.

Results

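The levels of 10 genes of the circadian clock, Arntl, Clock, Per1, Per2, Per3, Cry1, Cry2, Nr1d1, Nr1d2 and Dbp, were taken by gene symbol from 47597 annotated entries in each of 60 mouse brain RNA-seq libraries. All 10 were found. The libraries came from C57BL/6N mice aged 3 months that carried edited alleles of Htt, the huntingtin gene, and were labelled as cortex or striatum, with 6 libraries (3 labelled male and 3 female) in each of 10 groups. The Δ12 line, in which part of an Htt exon is deleted, was present as +/+, Δ12/+ and Δ12/Δ12, and the KO line, which carries a disrupted Htt allele, as +/+ and KO/+. Each labelled mouse contributed 1 cortex and 1 striatum library, and no time of day of dissection was given in the sources used here. The comparisons asked whether the edited alleles changed the transcriptome of these tissues.

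In the molecular clock, BMAL1 (encoded by Arntl) and CLOCK form a dimer that binds E-box elements and activates Per, Cry, Nr1d and Dbp genes. PER and CRY proteins then repress this dimer, while REV-ERBα and REV-ERBβ (encoded by Nr1d1 and Nr1d2) repress Arntl through ROR elements. In a tissue followed over the day, Arntl transcripts therefore peak out of phase with Nr1d1, Dbp and Per transcripts, and Cry1, which holds both E-box and ROR elements, peaks later than the other E-box genes. DBP is a transcription factor of the PAR bZIP family that acts on D-box elements, among others in Per genes.

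The tissue labels did not match the marker genes. By the deposited FPKM (fragments per kilobase of transcript, scaled to the number of mapped fragments) of Slc17a7, the vesicular glutamate transporter of cortical excitatory neurons, 30 libraries lay above 100 (120.8 to 233.8) and are called cortex-like, and the other 30 lay between 4.81 and 64.8 and are called striatum-like. The dopamine receptor gene Drd2, a marker of striatal projection neurons, was at 0 to 18.5 FPKM in the first set and at 29.4 to 61.8 in the second. Male 3 of the group labelled striatum Δ12-line Δ12/+ stood apart in the cortex-like set, with the highest Drd2 (18.5, where the next library had 4.38) and the lowest Slc17a7 (120.8, where the next had 154.7). Each set held 15 libraries labelled cortex and 15 labelled striatum. The cortex-like set held every library labelled Δ12-line +/+ or Δ12/+ and the male Δ12/Δ12 libraries, and the striatum-like set held the female Δ12/Δ12 libraries and the whole KO line. Transcripts linked to the sex chromosomes matched the labelled sex in 13 of 30 and 17 of 30 libraries. The title of 1 library labelled striatum KO/+ named the Δ12 line, and it was placed by its genotype label. Group medians of Htt itself ranged from 8.32 to 17.5 rescaled FPKM, and in the KO line Htt did not pass the test in KO/+ against +/+ (log2 difference -0.14 with an SE of 0.11 in the striatum label, adjusted p = 0.499, and -0.07 with an SE of 0.09 in the cortex label, adjusted p = 0.797). Groups are given below as labelled, and libraries whose labels may be wrong remain in them.

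The clock elements near the start sites of these genes are shown here as background, and their relation to the levels was not tested. RefSeq promoters (GRCm38.p6, 250 bases before to 50 bases after an annotated start) were matched by symbol for 9 of the 10 genes, with 13 entries. Both strands were searched for the E-box (CACGTG), the E'-box (CACGTT), the D-box (TTATGTAA or TTACGTAA) and the ROR element (ANTAGGTCA or ANTGGGTCA). The windows of the genes that the results turn on are printed 5′ to 3′ on the strand of the gene, with matches in capitals. Nr1d1 lies at chr11:98775328-98775627 on the minus strand, Cry1 at chr10:85185005-85185304 (minus), Per3 at chr4:151044616-151044915 (minus), Dbp at chr7:45704997-45705296 (plus) and the second Arntl entry at chr7:113207261-113207560 (plus).
Nr1d1: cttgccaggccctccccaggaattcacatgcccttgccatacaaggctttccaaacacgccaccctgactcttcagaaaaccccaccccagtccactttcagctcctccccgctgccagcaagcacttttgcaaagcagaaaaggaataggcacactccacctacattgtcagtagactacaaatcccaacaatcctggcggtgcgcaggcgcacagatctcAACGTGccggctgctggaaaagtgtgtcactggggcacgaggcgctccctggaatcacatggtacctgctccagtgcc
Cry1: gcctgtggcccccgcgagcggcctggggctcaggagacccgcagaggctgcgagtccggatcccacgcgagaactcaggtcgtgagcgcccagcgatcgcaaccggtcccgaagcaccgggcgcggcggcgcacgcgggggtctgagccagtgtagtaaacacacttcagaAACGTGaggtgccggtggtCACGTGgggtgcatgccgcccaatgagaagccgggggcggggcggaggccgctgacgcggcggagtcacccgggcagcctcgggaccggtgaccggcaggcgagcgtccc
Per3: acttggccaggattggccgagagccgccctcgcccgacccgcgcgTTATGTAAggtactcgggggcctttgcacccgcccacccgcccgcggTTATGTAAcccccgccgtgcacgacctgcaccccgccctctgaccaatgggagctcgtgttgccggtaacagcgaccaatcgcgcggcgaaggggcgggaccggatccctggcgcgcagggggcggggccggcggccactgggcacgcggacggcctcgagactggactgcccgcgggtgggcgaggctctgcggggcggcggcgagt
Dbp: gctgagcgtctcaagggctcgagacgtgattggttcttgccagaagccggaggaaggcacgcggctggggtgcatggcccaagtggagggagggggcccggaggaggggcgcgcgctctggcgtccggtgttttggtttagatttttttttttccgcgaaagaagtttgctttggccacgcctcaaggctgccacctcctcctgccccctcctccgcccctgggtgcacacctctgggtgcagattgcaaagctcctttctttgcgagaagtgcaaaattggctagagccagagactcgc
Arntl, second entry: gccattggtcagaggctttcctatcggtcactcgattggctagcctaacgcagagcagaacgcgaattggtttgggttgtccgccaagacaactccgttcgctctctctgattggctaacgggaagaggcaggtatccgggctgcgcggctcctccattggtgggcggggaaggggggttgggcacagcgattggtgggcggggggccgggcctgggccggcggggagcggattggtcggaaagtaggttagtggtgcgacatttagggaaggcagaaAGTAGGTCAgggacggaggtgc

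Positions count from the start site, with negative values before it. Cry1 held an E-box at -60 and an E'-box at -79, and Nr1d1 held an E'-box at -28. Per3 held a pair of D-boxes, at -205 and -158. The second Arntl entry held a ROR element at 29. None of the 4 motifs was found in the windows of Dbp, Nr1d2 or Clock, which says only that these letters are not in these windows. Outside the printed windows, the first Per1 entry held an E-box and Cry2 an E'-box, each at -166. Among all 32851 windows of 300 bases, 7.15% held an E-box, 4.68% an E'-box, 1.06% a D-box and 1.45% a ROR element.

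Levels are given as rescaled FPKM, that is, FPKM divided by a median-of-ratios factor per library (0.761 to 1.38). The 2 sets were defined by expression, so their levels are described without a test. For 7 of the 10 genes the sets did not overlap, and among all 16076 entries with a mean of at least 0.5 this was so for 36.2%. The median log2 ratio over these entries was 0.03. In bulk tissue, fewer cells of a type and less RNA per cell cannot be told apart. The sets also nearly follow the lines, since only the female Δ12/Δ12 libraries of the Δ12 line lie with the KO line. Tissue, line and time of dissection therefore cannot be told apart in these levels. Most clock genes were at higher levels in the striatum-like set, and Nr1d2 was at lower levels.

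Of the activators, Arntl differed most between the sets. Its lowest, median and highest levels were 0.401, 1.70 and 3.83 in the cortex-like set and 5.58, 7.84 and 10.8 in the striatum-like set, a ratio of medians of 4.61. The highest cortex-like library thus lay below the lowest striatum-like one. Clock was at 2.83, 5.63 and 7.92 against 9.99, 12.3 and 14.5, a ratio of 2.18. The lowest Arntl value belonged to the library labelled cortex Δ12-line +/+ male 1, whose deposited FPKM of 0.422 had an interval of 0.211 to 0.633 in the file.

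Among the repressors, Per2 was at 1.08, 1.55 and 2.31 (lowest, median and highest) in the cortex-like set and at 2.73, 4.61 and 6.52 in the striatum-like set, a ratio of 2.97. Per3 was at 1.01, 1.63 and 3.02 against 3.25, 4.05 and 6.18 (ratio 2.48). Cry2 was at 7.26, 9.90 and 13.3 against 20.2, 21.9 and 28.6 (ratio 2.22). These 3 genes did not overlap between the sets. Per1, also an early response gene, overlapped, with 5.86, 12.6 and 17.6 against 11.8, 20.1 and 36.1 (ratio 1.60). Cry1 was at nearly the same level in both sets, with 6.12, 7.03 and 9.56 against 5.14, 6.77 and 8.74 (ratio 0.963).

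The Nr1d paralogs lay in opposite order. Nr1d1 was at 3.07, 6.86 and 12.1 in the cortex-like set and at 12.5, 19.4 and 26.6 in the striatum-like set, a ratio of 2.83. Nr1d2 was at 21.5, 26.2 and 35.3 against 14.2, 17.2 and 21.5, a ratio of 0.656, and its highest striatum-like level met its lowest cortex-like one. Nr1d2 therefore had the highest median of the 10 genes in the cortex-like set, where Per2 had the lowest, while Dbp had the highest in the striatum-like set, where Per3 had the lowest. Dbp was at 5.34, 8.57 and 14.6 against 23.2, 29.7 and 44.1, a ratio of 3.46. On the FPKM as deposited the ratios were smaller, from 0.523 for Nr1d2 to 3.54 for Arntl, and that of Cry1 was 0.727.

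**Figure D1:**
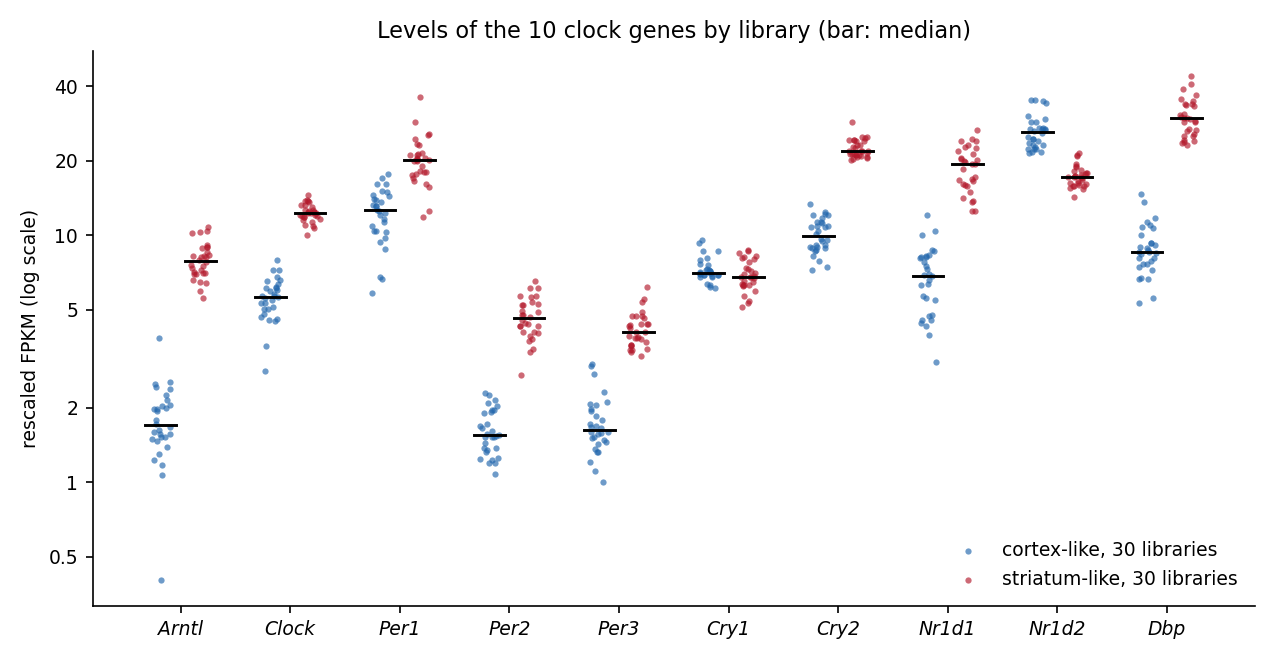
Rescaled FPKM of the 10 clock genes (log axis) in the 30 cortex-like and 30 striatum-like libraries. Each point is a library and each bar a median, and the points of Arntl, Clock, Per2, Per3, Cry2, Nr1d1 and Dbp lie apart between the sets.

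Within a set the genes varied unequally. The coefficient of variation over libraries was largest for Arntl (33.5%) and Nr1d1 (30.7%) and smallest for Cry1 (11.5%) in the cortex-like set. In the striatum-like set it was largest for Per1 (23.2%) and Nr1d1 (20.5%) and smallest for Clock (8.32%) and Cry2 (8.39%). The interval that the files give around a single value was a median of ±20.5% for Arntl, ±13.0% for Nr1d1 and ±37.4% for Per2 in the cortex-like set, and ±10.3%, ±8.15% and ±46.9% in the striatum-like set. The coefficient of variation of Per2 over libraries was 21.2% and 19.1%.

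The first relation examined was that of each clock gene to Arntl over the 30 libraries of a set, on the log2(rescaled FPKM + 0.5) scale. Adjusted p-values come from limma over all genes tested in the set, and permutation p-values (100000 resamples, two-sided) are given for the single relations. A labelled mouse gave 2 libraries, so the 30 libraries stand for 15 labelled mice, and p-values treat them as independent. In the cortex-like set none of the 9 other clock genes passed (1 had an unadjusted permutation p under 0.05), where 2.27% of 15231 genes passed with Arntl and 2.00% against it. By limma, 11.9% of these genes had an unadjusted p under 0.05 with Arntl and 10.3% against it. Nr1d1 had r = -0.11 (Spearman's rho = -0.12, permutation p = 0.576 and 0.528, adjusted p = 0.770) and Nr1d2 r = -0.13 (rho = -0.16, p = 0.482 and 0.397, adjusted p = 0.715). The strongest relation was a positive one with Per1 (r = 0.43, p = 0.0193, adjusted p = 0.129, rho = 0.24, p = 0.208), which went to r = 0.12 without the 2 libraries farthest from the median of Arntl. Per2 had r = 0.20, Per3 -0.30, Clock 0.31 and Dbp 0.21. The cortex-like relations rest on few libraries: without the library labelled cortex Δ12-line +/+ male 1, no gene passed with or against Arntl, where 650 of 15231 did with it.

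Cry1 and Per2 rose with Arntl in the striatum-like set, where 4.26% of 15958 genes passed with Arntl and 2.04% against it. Cry1 had r = 0.64 (permutation p = 0.00016, adjusted p = 0.00974), rho = 0.65 (p = 0.00012) and r = 0.62 without the 2 farthest libraries. Per2 had r = 0.54 (p = 0.00212, adjusted p = 0.0380), rho = 0.49 (p = 0.00610) and r = 0.47 without those libraries, where its adjusted p was 0.110. Without the library labelled cortex KO-line KO/+ female 2, Per2 also no longer passed (r = 0.48, adjusted p = 0.106). Cry2 had r = 0.53 (p = 0.00255, adjusted p = 0.0545) and Per1 r = 0.38 (p = 0.0369, adjusted p = 0.191).

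The arm of the clock that represses Arntl had relations of the opposite sign that did not pass. Nr1d1 had r = -0.35 (p = 0.0623, adjusted p = 0.253) and rho = -0.39 (p = 0.0351). Nr1d2 had r = -0.39 (p = 0.0314, adjusted p = 0.198) and rho = -0.39 (p = 0.0322). Both stayed negative without the 2 farthest libraries, at r = -0.33 and -0.44. Dbp had r = -0.10, Clock 0.26 and Per3 0.15. On the FPKM as deposited the r of Nr1d1 turned to 0.04, and with the labelled group as a factor it was 0.10.

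Markers of striatal projection neurons moved with Arntl in the same libraries. Of 8 such markers, 7 rose with it, among them Pde10a (r = 0.68, adjusted p = 0.00467) and Drd1 (r = 0.68, adjusted p = 0.00496), and their summed level, 1144 to 2277 rescaled FPKM, had r = 0.63 with Arntl. With Slc17a7 and Drd2 as covariates Cry1 had a partial r of 0.35 (adjusted p = 0.805) and Per2 of 0.17 (adjusted p = 0.947), and no gene passed. With the labelled group as a factor Cry1 had r = 0.46 (adjusted p = 0.280) and Per2 r = 0.36 (adjusted p = 0.424). Of 24 further clock genes, Tef, which encodes a PAR bZIP factor like DBP, was the 1 that passed in both sets, and it did so in opposite directions, with r = -0.57 (adjusted p = 0.0337) in the cortex-like set, where 23 were tested, and r = 0.53 (adjusted p = 0.0469) in the striatum-like set.

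**Figure D2:**
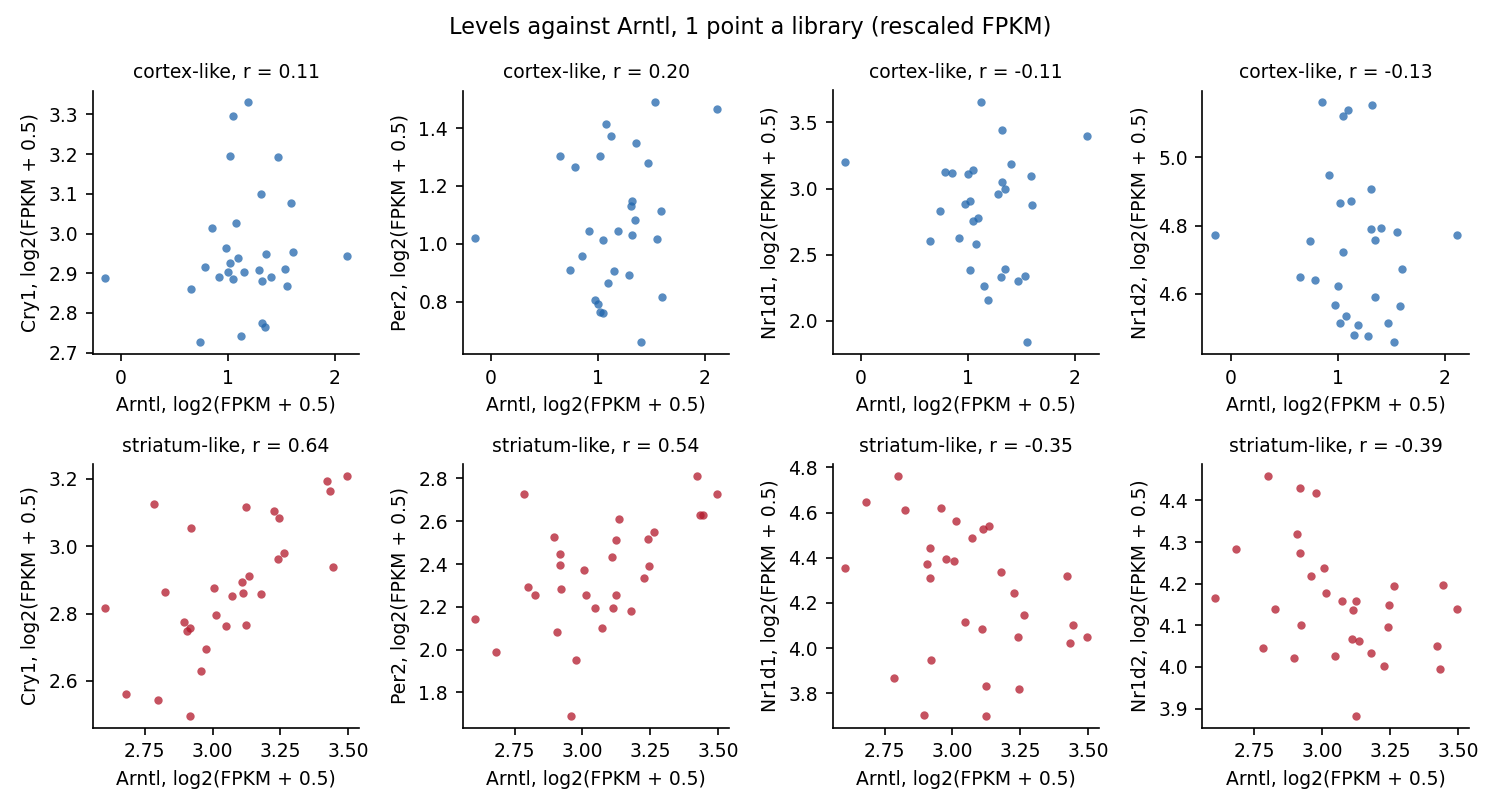
Log2 levels of Cry1, Per2, Nr1d1 and Nr1d2 against Arntl, 1 point a library, for the cortex-like (top) and striatum-like set (bottom). The points rise from left to right for Cry1 (r = 0.64) and Per2 (r = 0.54) in the striatum-like set, and show no slope that passed the test in the cortex-like set.

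Nr1d1 and Dbp moved together in both sets, and the cause was not tested. Among 14071 genes tested in both sets, Nr1d1 was the gene most like Dbp, ranked by the smaller r of the sets when the signs were the same. It had r = 0.66 in the cortex-like set (permutation p = 0.00011, adjusted p = 0.0149, rho = 0.69, p = 0.0001), where 2.42% of genes rose with Dbp and 0.611% fell. In the striatum-like set it had r = 0.75 (p = 2.0e-05, adjusted p = 0.00943, rho = 0.72, p = 3.0e-05), where 0.0125% of genes rose with Dbp and 0.00627% fell. Within the labelled groups r was 0.74 and 0.88. Without the 2 libraries farthest in Dbp r was 0.58 and 0.70, with adjusted p of 0.120 and 0.0979. With the replicate number as a block, which did not pair the samples, neither relation passed (r = 0.63, adjusted p = 0.0739, and r = 0.72, adjusted p = 0.156). The calls of the cortex-like set rest on male 3 of the group labelled striatum Δ12-line Δ12/+, the library with the highest Drd2 of that set. Without it no gene passed by limma with or against Dbp (2040 of 15211 had an unadjusted p under 0.05), Nr1d1 had r = 0.63 (adjusted p = 0.0940) and Cry2 r = 0.59 (adjusted p = 0.142). Without the library labelled striatum KO-line +/+ female 2 Nr1d1 had r = 0.71 (adjusted p = 0.0511) in the striatum-like set. The next genes most like Dbp were Map1a (r = 0.62 and 0.70), Dync1h1, App and Fasn, and those most opposed to it were Klf10 (r = -0.56 and -0.54), Srsf7, Mat2a, Tmem132d and Zfp715.

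Both genes share sequence with a neighbour, and the strand setting of the counting was not given in the sources used here. Nr1d1 (chr11:98767932-98775333, minus strand) overlaps Thra on the other strand, and Dbp (chr7:45705247-45710203, plus strand) overlaps Sphk2 on the other strand. Nr1d1 had r = -0.10 and -0.33 with Thra, and Dbp had r = 0.28 and 0.08 with Sphk2, in the cortex-like and striatum-like set. With both neighbours held constant the r of Nr1d1 and Dbp was 0.67 and 0.81.

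Cry2 also rose with Dbp in the cortex-like set (r = 0.61, permutation p = 0.00024, adjusted p = 0.0275, rho = 0.55, p = 0.00196). Over the striatum-like libraries it had r = 0.34 (p = 0.0630, adjusted p = 0.490) and r = 0.62 within the labelled groups. In the cortex-like set its adjusted p was 0.183 without the 2 farthest libraries (r = 0.52) and 0.0572 without that labelled striatum Δ12-line Δ12/+ female 1. With Slc17a7 and Drd2 as covariates neither Nr1d1 (r = 0.54, adjusted p = 0.279) nor Cry2 (r = 0.52, adjusted p = 0.358) passed there, while Nr1d1 did in the striatum-like set. Drd2 itself had r = 0.63 with Dbp in the cortex-like set (adjusted p = 0.0179), and r = 0.52 (adjusted p = 0.171) without the library of highest Drd2. The part of marker levels in these relations was not tested further.

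**Figure D3:**
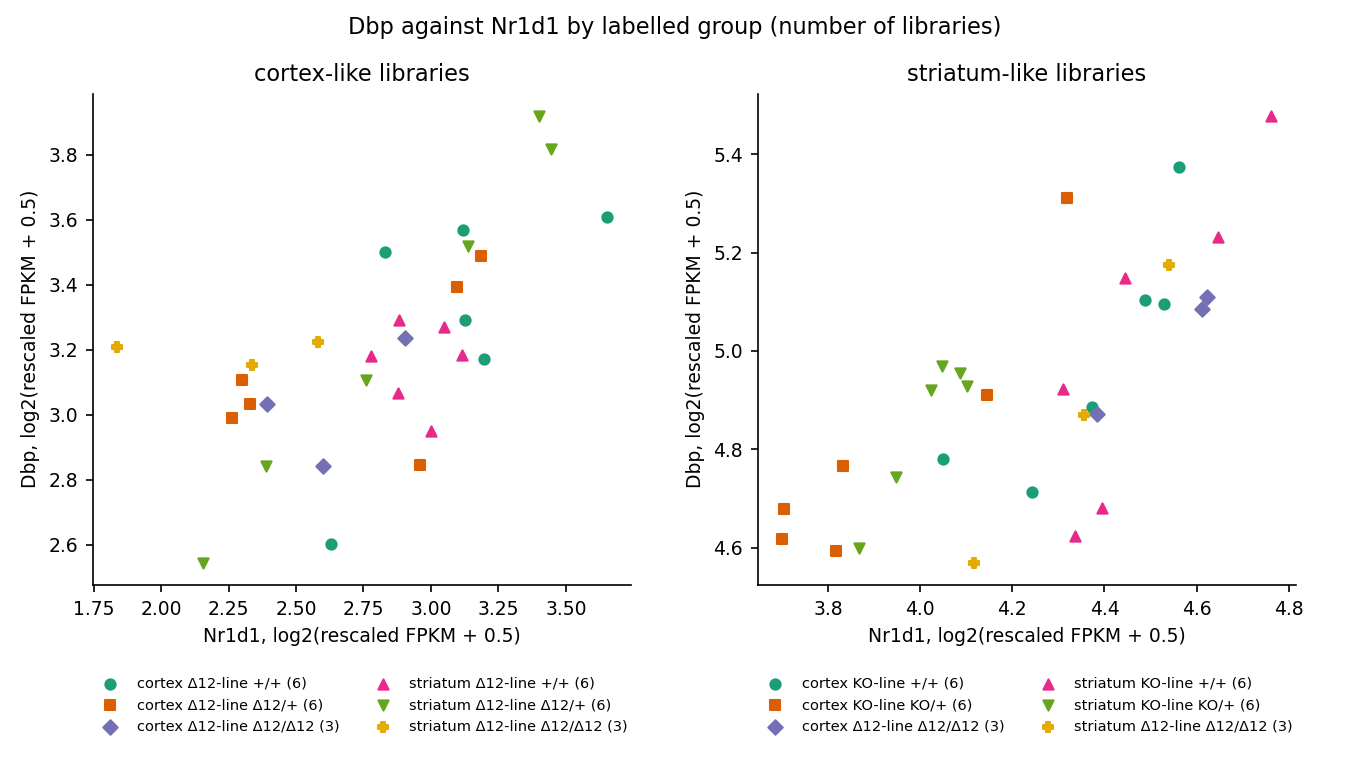
Log2 levels of Dbp against Nr1d1 in the cortex-like (left) and striatum-like libraries (right), with 1 symbol for each labelled group and its number of libraries. Dbp rises with Nr1d1 in both panels (r = 0.66 and 0.75).

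Over all pairs of the 10 genes, described without tests, Cry1 ran against the Nr1d genes. Cry1 and Nr1d1 had r = -0.43 in the cortex-like and -0.53 in the striatum-like set, and Cry1 and Nr1d2 had -0.26 and -0.66. Within the labelled groups these were -0.52 and 0.01 for Nr1d1, and -0.29 and -0.43 for Nr1d2. The Nr1d paralogs had r = 0.36 and 0.55 with each other. Per1 and Per2 had r = 0.31 and 0.67, and within the labelled groups 0.42 and 0.70. The first principal component held 30.2% of the variance in the cortex-like set, where Dbp, Cry2, Nr1d1 and Per1 had the largest weights, all of 1 sign. In the striatum-like set it held 40.4%, with Nr1d1, Nr1d2 and Dbp on 1 side and the other 7 genes on the other side.

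**Figure D4:**
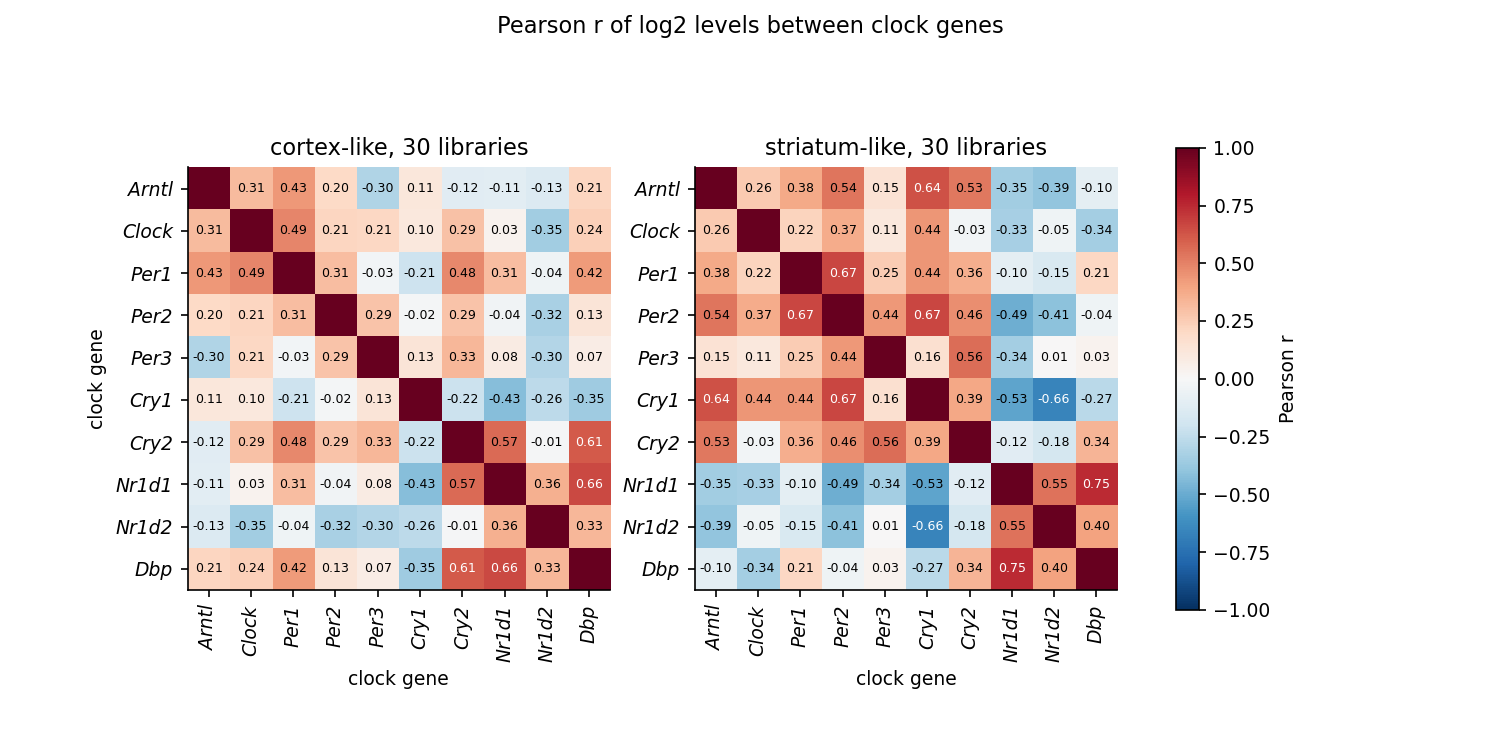
Pearson r between the log2 levels of every pair of clock genes over the 30 cortex-like (left) and 30 striatum-like libraries (right), with red for positive and blue for negative values. The block of Arntl, Per1, Per2, Cry1 and Cry2 is positive and that of Cry1 and Per2 with Nr1d1 and Nr1d2 negative in the striatum-like set, and the pair of Nr1d1 and Dbp is positive in both sets.

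The 2 libraries of a labelled mouse always fell into the same set. Over the 15 labelled mice of a set, the Arntl levels of the libraries labelled cortex and striatum had r = -0.19 in the cortex-like (permutation p = 0.478) and r = 0.32 in the striatum-like set (p = 0.250). For the other genes r ranged from -0.29 for Cry2 to 0.56 for Cry1 and from -0.23 for Dbp to 0.54 for Per2.

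Genotypes were compared within a line and a labelled tissue by limma, with the labelled sex as a covariate and p-values adjusted over all genes. In the KO line, whose libraries are all striatum-like, Nr1d1 fell and Cry1 rose in KO/+ against +/+ in the striatum label, 2 of 10 clock genes where 6.91% of 15808 genes passed. Nr1d1 was at 14.1, 15.9 and 16.7 (lowest, median and highest) in KO/+ and at 19.3, 20.9 and 26.6 in +/+, so that all 6 KO/+ libraries lay below all 6 +/+ libraries. Its log2 difference was -0.47 with an SE of 0.07 (adjusted p = 0.00467). Cry1 was at 6.94, 8.02 and 8.74 in KO/+ and at 5.14, 5.69 and 6.75 in +/+, again without overlap, a log2 difference of 0.41 with an SE of 0.08 (adjusted p = 0.0153). Both passed when any single library was left out, the library with the other line in its title included, with adjusted p up to 0.0175 and 0.0402. By limma, 5 clock genes and 21.8% of all genes had an unadjusted p under 0.05. How many of all genes lay without overlap between the genotypes was not counted, here or in the genotype comparisons below. A lack of overlap is therefore not a result about clock genes in particular.

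The other 8 genes did not pass. Per2 was at 4.36, 5.69 and 6.12 in KO/+ against 3.36, 4.21 and 4.95 (log2 difference 0.36, SE 0.11, adjusted p = 0.0642). Nr1d2 was at 15.4, 16.5 and 17.9 against 15.9, 19.9 and 21.5 (-0.23, SE 0.07, adjusted p = 0.0858). Clock was at 12.1, 13.4 and 13.8 against 9.99, 12.1 and 12.5, with 5 of 6 KO/+ libraries above all +/+ libraries (0.17, SE 0.07, adjusted p = 0.153). Arntl, at 6.38, 9.21 and 10.8 against 5.92, 7.06 and 8.55, had a log2 difference of 0.29 with an SE of 0.13 (adjusted p = 0.238). Dbp, at 23.7, 29.9 and 30.8 against 24.2, 32.4 and 44.1, had -0.16 with an SE of 0.10 (adjusted p = 0.382). Those of Per1, Per3 and Cry2 were 0.18, 0.06 and 0.09.

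Of 24 further clock genes, Npas2, a paralog of Clock (0.47, SE 0.07, adjusted p = 0.00543), and Tef (0.30, SE 0.07, adjusted p = 0.0295) rose in the same comparison. Rora (-0.81, SE 0.12, adjusted p = 0.00503) and Rorb (-0.45, SE 0.08, adjusted p = 0.00998), which encode activators at the ROR elements that the REV-ERB proteins repress, fell. The median log2 difference was 0.13 over the 10 clock genes, 0.03 over these 24 and 0.02 over all genes.

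Cell type markers moved in these libraries too. Of 8 markers of striatal projection neurons, 6 rose (Drd2 by 0.51, adjusted p = 0.00797), and their sum was 1620 to 2102 in KO/+ and 1144 to 1558 in +/+. Of 5 oligodendrocyte markers, 4 fell (Mag, log2 difference -0.43, adjusted p = 0.00581), with sums of 828.2 to 940.3 and 1012 to 1216. Of 4 hypothalamic markers, 3 fell (Pmch, -5.12, adjusted p = 0.00106), with sums of 0 to 1.55 in KO/+ and 6.16 to 139.2 in +/+. Aqp4 and Tmem212, of the astrocyte and ependymal lists, also passed. With Drd2 and Mag as covariates, a setting chosen after the data were seen, the log2 differences were -0.36 for Nr1d1 (SE 0.20) and 0.37 for Cry1 (SE 0.25), and no gene passed (adjusted p = 0.999 for both). On the FPKM as deposited Cry1 did not pass (0.32, adjusted p = 0.150). When the spread was taken from all 30 libraries labelled striatum, 15 of them from the cortex-like set, Nr1d1 did not pass (adjusted p = 1).

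In the cortex label of the KO line, where 0.0885% of 15820 genes passed, none of the 10 clock genes did (3 had an unadjusted p under 0.05, as had 13.9% of all genes). Nr1d1 was at 12.5, 13.7 and 19.5 in KO/+ and at 16.1, 21.1 and 23.1 in +/+, with 4 of 6 KO/+ libraries below all +/+ libraries and a log2 difference of -0.45 with an SE of 0.13 (adjusted p = 0.196). Per3 was at 4.70, 4.80 and 6.18 against 3.25, 3.64 and 4.39. All 6 KO/+ libraries lay above all +/+ libraries (0.41, SE 0.08, adjusted p = 0.105). Per2 was at 4.28, 5.24 and 6.52 against 3.73, 4.18 and 5.22 (0.26, SE 0.09, adjusted p = 0.232), and Cry1 at 6.31, 7.68 and 8.65 against 6.22, 6.74 and 8.09 (0.10, SE 0.09, adjusted p = 0.677). The difference between the labelled tissues passed for none of the 10 genes and for none of 15917 genes (2 clock genes and 1788 genes, 11.2%, had an unadjusted p under 0.05). That of Nr1d1 was -0.02 with an SE of 0.15 (adjusted p = 0.981), and that of Cry1 0.31 with an SE of 0.12 (adjusted p = 0.364). This fit treated the 2 libraries of a labelled mouse as independent. All libraries of the KO line are striatum-like, so it compared labels and not tissues.

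**Figure D5:**
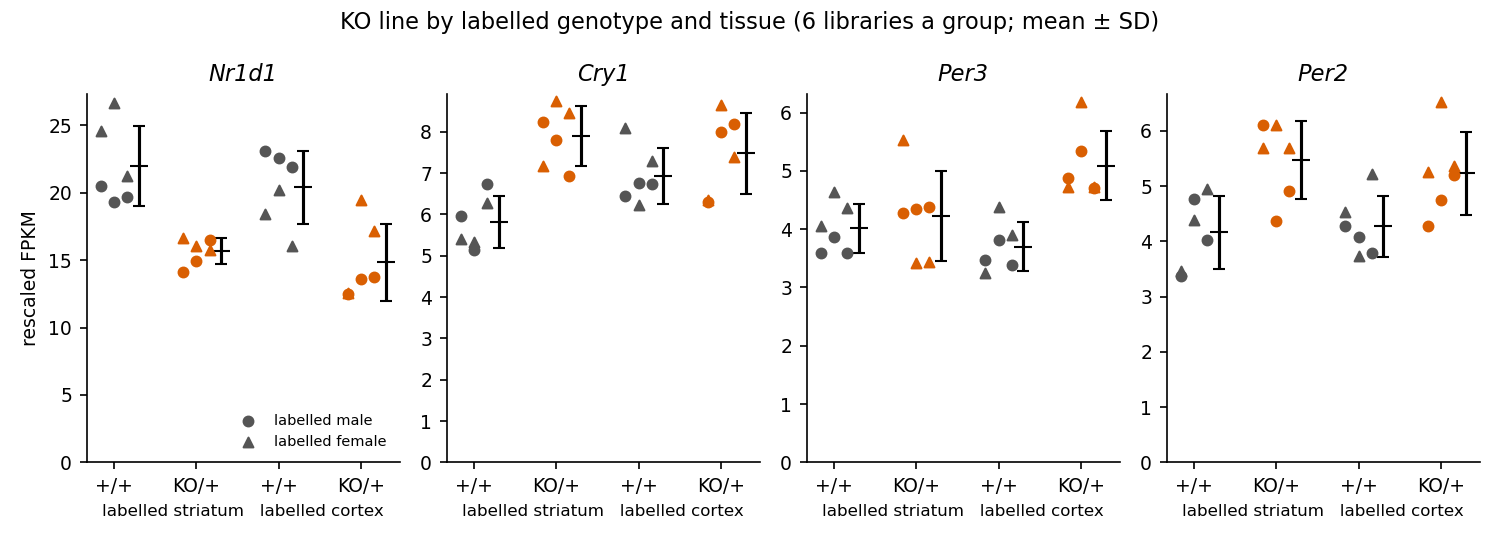
Rescaled FPKM of Nr1d1, Cry1, Per3 and Per2 in the KO line by labelled genotype and tissue, 6 libraries a group, with circles for labelled males and triangles for labelled females, and the mean ± SD beside them. In the striatum label the KO/+ points lie below the +/+ points for Nr1d1 and above them for Cry1.

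In the Δ12 line, Δ12/Δ12 against +/+ in the striatum label passed for 5 of 10 clock genes, where 28.3% of 15467 genes passed. Arntl (log2 difference 0.93, SE 0.28, adjusted p = 0.0388), Per2 (0.91, adjusted p = 0.0292), Per3 (0.66, adjusted p = 0.0338) and Dbp (0.88, adjusted p = 0.0446) rose and Nr1d2 (-0.48, adjusted p = 0.0459) fell. These are the directions in which the expression-defined sets differ, and the 3 female Δ12/Δ12 libraries are striatum-like while all others are cortex-like. Arntl was at 1.61, 2.39 and 2.43 in the 3 male and at 5.58, 7.77 and 8.28 in the 3 female Δ12/Δ12 libraries, against 1.47 to 2.54 in +/+. Dbp was likewise at 8.40 to 8.85 and at 23.2 to 35.6, against 7.22 to 9.29. With the set as a covariate no clock gene passed, and without the library labelled striatum Δ12-line +/+ female 1 none did either. In both labels genotype and set cannot be told apart in the female libraries.

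In the cortex label, Δ12/Δ12 against +/+ passed for none of the 10 genes, where 0.924% of 15696 genes passed (5 clock genes and 38.1% of all genes had an unadjusted p under 0.05). Arntl was at 1.07, 1.53 and 2.05 in the male and at 6.58, 7.26 and 7.52 in the female Δ12/Δ12 libraries. The male Δ12/Δ12 libraries share a set with +/+, and among these Nr1d1 stood apart from the male +/+ libraries in both labels, a pattern picked out after its values were seen. It was at 3.07 to 5.49 against 6.36 to 6.88 in the striatum label, with 3 libraries a group throughout. In the cortex label it was at 4.75 to 6.98 against 8.24 to 12.1. The female +/+ libraries, also of this set, were at 7.50 to 8.15 in the striatum label. They were at 5.69 to 8.19 in the cortex label, where they overlapped the male Δ12/Δ12 libraries. These differences were not tested, and how many of all genes lay apart in this way was not counted. No clock gene passed in Δ12/+ against +/+, where 0.00663% of 15077 genes passed in the striatum and 0.0662% of 15095 in the cortex label (1 and 2 clock genes had an unadjusted p under 0.05, as had 3.22% and 8.37% of all genes). Arntl in the cortex label was at 1.72, 2.07 and 2.50 in Δ12/+ and at 0.401, 1.27 and 1.68 in +/+, with all 6 Δ12/+ libraries above all +/+ libraries and a log2 difference of 0.65 with an SE of 0.19 (adjusted p = 0.374). In the striatum label it was at 1.53, 1.67 and 3.83 against 1.47, 1.81 and 2.54 (0.06, SE 0.19, adjusted p = 0.9996).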

How the data were processed

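RNA was measured in 60 libraries (rRNA depletion, directional kit). The authors deposited FPKM tables per library. Per the labels, reads were trimmed with Trimmomatic 0.30, aligned with TopHat2 2.0.14 to GRCm38.p4 and handled with SAMtools 1.3 and HTSeq 0.6.1p1, and the program that made the FPKM was not given in the sources used here. The files give an interval per value but no counts, so the depth is unknown. Of 47597 entries, joined by identifier and locus, 23 without status OK in every library were dropped. FPKM was rescaled by median-of-ratios factors over 13235 entries. Tests used limma 3.58.1 in R 4.3.3 on log2(rescaled FPKM + 0.5), for genes with a mean of at least 0.5 in the fit, with Benjamini-Hochberg adjustment at 0.05. Fold changes on this scale understate those of low genes. Nothing states that libraries of a group are separate preparations, so p-values measure the spread between these samples. On simulated data for the KO line in the striatum label (15808 genes), 48 of 100 genes changed by 0.5 log2 units and 84 of 100 changed by 1 were called, with 3 of the unchanged genes. For the relation to Arntl, 20 of 100 genes with r = 0.5 and 81 of 100 with r = 0.7 were called in the cortex-like set (15232 genes), and 21 and 86 in the striatum-like set (15959 genes). The simulated noise was independent between genes and libraries. It lacked any correlation between genes or between libraries of a labelled mouse, so these numbers may not hold for the real fits. Clock genes and lists were chosen with earlier results of these data known. Further genes were named where they passed against Arntl in both sets, or had the 5 highest or lowest r with Arntl or Dbp by the smaller r of the sets. Thra, Sphk2, Htt and marker genes were named after their values were seen. Replicate numbers did not pair the samples (mean correlation of same-numbered deviations -0.07 to 0.02). Values of some marker genes, and a setting that used one of them as a covariate, are not reported here.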

Additional observations from a re-analysis of the deposited data

Results flagged for a closer look

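Among the 100 combinations of clock gene and labelled group of 6 libraries, 6 held a library that stood apart from the other 5 by Dixon's ratio, and chance alone flags about 1 in 20. Arntl was at 3.83 rescaled FPKM in male 3 of the group labelled striatum Δ12-line Δ12/+, against 1.53 to 1.99 in the others of its group, and this library also had the highest Per1, Dbp and Drd2 (18.5 FPKM as deposited, where the next had 4.38) and the lowest Slc17a7 (120.8) of the cortex-like set. Arntl and Dbp were higher in every striatum-like library, and the part of the marker levels was not tested. Per1 was at 25.5 in the library labelled striatum KO-line +/+ female 3, against 17.6 to 20.5, and at 36.1 in that labelled cortex KO-line KO/+ female 2, against 15.7 to 21.1. The latter library also had the highest Per2, Per3 and Cry2 of the striatum-like set. Per3 was at 2.74 in the library labelled cortex Δ12-line Δ12/+ female 1, against 1.01 to 1.57. Cry1 was at 5.68 in the library labelled cortex Δ12-line Δ12/Δ12 female 1, against 6.76 to 7.22, and Cry2 at 24.3 in that labelled striatum KO-line +/+ female 2, against 20.5 to 21.5.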

How the results depend on the processing

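The clock genes that passed in KO/+ against +/+ in the striatum label, 2 in the report, numbered 1 with the replicate number as a block, with all 30 libraries of the label and on the deposited FPKM, 4 at an adjusted p under 0.1 and 0 with Drd2 and Mag as covariates, and 2 to 3 with 1 library left out. With the block Cry1 no longer passed (adjusted p = 0.0626). The 5 of Δ12/Δ12 in the striatum label numbered 2 without the filter and 0 without the sex covariate, with the block or with the set as a covariate, and 0 to 7 with 1 library left out. The 0 of Δ12/Δ12 in the cortex label became 7 with all 30 libraries, 4 at an adjusted p under 0.1 and 0 to 2 with 1 library left out. Against Arntl in the cortex-like set, 0 became 1 on the FPKM as deposited and with Xist as a covariate. In the striatum-like set, 2 became 1 with quantile normalization, without the filter and without the 2 farthest libraries, 0 with the labelled group or with Slc17a7 and Drd2, and 1 to 3 with 1 library left out. Against Dbp, with settings chosen after the data were seen, the 2 of the cortex-like set became 1 with Xist and 0 with Slc17a7 and Drd2, without the 2 farthest libraries and with the replicate block, and 0 to 2 with 1 library left out. The 1 of the striatum-like set became 3 on the FPKM as deposited, 0 without the 2 farthest libraries and with the replicate block, and 0 to 1 with 1 library left out. The blocked fits did not change the other counts of clock genes. All these counts are of clock genes alone, and the share of all genes that passed under each setting is not given here. In the main fits that share was 6.91% for KO/+ in the striatum label. For Δ12/Δ12 it was 28.3% in the striatum and 0.924% in the cortex label. A changed count is therefore not a result about clock genes in particular.

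Weak relations turned sign. In the cortex-like set, r with Arntl turned on the FPKM as deposited for Cry2 (0.11), Nr1d1 (0.024) and Nr1d2 (0.16), with quantile normalization for Nr1d2 (0.069), with the labelled group for Cry1 (-0.20), Cry2 (0.11), Nr1d1 (0.19) and Nr1d2 (0.070), without the 2 farthest libraries for Clock (-0.063), and without 1 library for Cry2 (-0.26 to 0.063) and Nr1d1 (-0.27 to 0.0017). In the striatum-like set it turned on the FPKM as deposited for Nr1d1 (0.037) and Dbp (0.20), with the labelled group for Per3 (-0.11), Nr1d1 (0.10) and Dbp (0.053), and without 1 library for Per3 (-0.0030 to 0.25). The r of Cry1 with Dbp there turned to 0.083 on the FPKM as deposited. The causes were not tested. Without counts the depth behind each value is unknown.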

Other observations

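The genes whose levels were most like those of Arntl in both sets, ranked by the smaller r, were Gcnt2 (r = 0.74 in the cortex-like and 0.67 in the striatum-like set), Zfp180 (0.66 and 0.67), Sipa1l1 (0.65 and 0.64), Ubqln4 (0.64 and 0.70) and Kcnn3 (0.64 and 0.77). Kcnn3 encodes a calcium-activated potassium channel. Those most opposed to it were Dpf3 (-0.58 and -0.56), Shisa4, Ankrd9, Gm26461 and Tmem125. No clock gene was among these 10. Of the lists of other processes that vary over a day, 0 of 10 temperature rhythm genes and 1 of 12 glucocorticoid response genes (Pdk4, higher) passed against Arntl in the cortex-like set, and 1 of 10 (Cirbp, lower) and 0 of 12 in the striatum-like set. The median r of the glucocorticoid response genes was 0.22 and 0.44, against 0.02 over all genes in each set. Of 12 activity-regulated genes, 0 and 1 (Egr1, higher) passed.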
